A study of Mus musculus with 8 samples.

Results

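The genes described here encode surface proteins that are used to recognize mesenchymal and stem cells: Ly6a, Thy1, Nt5e, Cd34, Eng, Cd44, Prom1, Kit, Pdgfra and Pdgfrb. Members were the probe sets whose RefSeq transcript belongs to 1 of these 10 genes, and probe sets with the same values on every array were counted once. This gave 18 probe sets with 10 distinct value profiles, 1 for each gene, among 22523 probe sets with 18172 distinct profiles. The study compared 3 cloned lines of p53-null murine fetal fibroblasts on 8 Affymetrix mouse arrays, in search of genes that change with the pattern of self-renewal. Ind-8 cells (3 arrays) carry a p53 cDNA under a modified metallothionein promoter that zinc activates, and self-renew asymmetrically with zinc (ASYM). Con-3 cells (3 arrays) carry the promoter vector without p53 and self-renew symmetrically (SYM). The labels call Con-3 the congenic parent of Ind-8, whereas the methods describe a vector control. tI-3 cells (2 arrays) derive from Ind-8, also express an IMPDH II cDNA constitutively, and remain symmetric although p53 is induced (p53SYM). All cultures received 65 µM ZnCl2 for 48 h with puromycin at 5 µg/ml. The p53SYM cultures also received G418, for which the labels and the methods give different doses. Each state is represented by 1 clone, so state and line cannot be told apart, and G418 differs along with the p53SYM line.

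These markers belong to different families of membrane proteins. Ly6a (Sca-1), Thy1 (CD90) and Nt5e (CD73) are held in the outer leaflet by a glycosylphosphatidylinositol anchor, Cd34 is a sialomucin, Eng (CD105) is a co-receptor for ligands of the TGF-β family, Cd44 binds hyaluronan, Prom1 (CD133) spans the membrane repeatedly, and Kit, Pdgfra and Pdgfrb are class III receptor tyrosine kinases. Cultured mesenchymal stromal cells are commonly recognized by CD73, CD90 and CD105, mouse haematopoietic stem cells by Kit and Sca-1, and fibroblasts by the PDGF receptors.

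The lines were compared by limma, fitted to the log2 values of all 8 arrays, with p adjusted over the 22523 probe sets (Benjamini-Hochberg), and differences under an adjusted p of 0.05 are referred to as called. Cdkn1a, a direct target of p53, was read first as a check of the labels. Its log2 values were 9.70, 9.70 and 9.59 on the ASYM arrays, 5.73, 5.81 and 6.03 on the SYM arrays and 7.55 and 7.33 on the p53SYM arrays. Each line thus held a range of its own, with ASYM above p53SYM and p53SYM above SYM. Trp53 averaged 5.79 ± 0.095 (SD, n = 3) in ASYM cultures, 5.25 ± 0.041 (SD, n = 3) in SYM cultures and 5.64 ± 0.069 (SD, n = 2) in p53SYM cultures, and was called higher than SYM in ASYM (adjusted p = 0.0019, limma) and in p53SYM cultures (adjusted p = 0.014, limma). Impdh2 was highest in SYM cultures, with a mean of 12.53, against 12.36 in p53SYM and 12.19 in ASYM cultures. The paper, citing earlier work, describes IMPDH II as elevated in p53SYM over SYM cultures, an order that this probe set did not show. ASYM minus SYM was −0.34 (adjusted p = 0.011, limma) and p53SYM minus SYM −0.17 (95% interval −0.37 to 0.02), with no overlap of arrays. The p53SYM arrays lay above the ASYM arrays, also without overlap, by a difference that was not called (ASYM minus p53SYM −0.17, 95% interval −0.36 to 0.03), and whether its probes read the added cDNA is not given in the sources used here.

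Some arrays stood apart before any gene was considered. The 3 control probe sets of 18S ribosomal RNA averaged 10.63 on SYM replicate 3 and between 5.58 and 6.46 on the other 7 arrays. The 18 hybridization control probe sets averaged between 9.88 and 10.00 in ASYM cultures and in SYM replicates 1 and 2, against 10.44 for SYM replicate 3 and 10.24 and 10.46 for the p53SYM cultures. The same 3 arrays had the highest median over the dimmest 25% of probe sets, at 3.86 for SYM replicate 3 and at 3.86 and 3.89 for the p53SYM cultures, with 3.72 to 3.78 for the others. Among these 5631 dim probe sets, 10.3% were called lower in ASYM than in p53SYM cultures and 0.959% higher, and 4.24% were called higher and 0.906% lower in p53SYM than in SYM cultures. Thy1, Prom1 and Kit belong to this dim range, with means over all arrays below 4.30, so small differences in them lie where the arrays themselves differ.

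**Figure D1:**
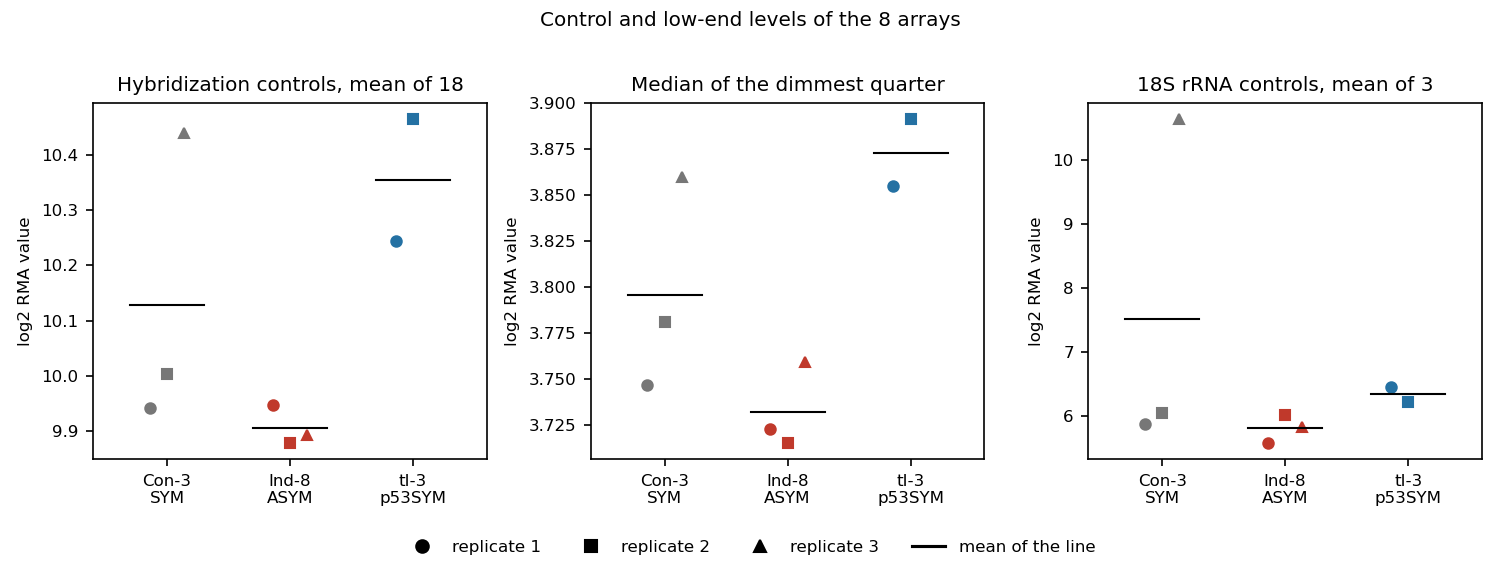
Mean log2 value of the 18 hybridization controls, median log2 value of the dimmest 25% of probe sets, and mean log2 value of the 3 controls of 18S ribosomal RNA on each of the 8 arrays, by line; symbols give the replicate and bars the mean of the line. SYM replicate 3 lies with the p53SYM arrays in the first pair of panels and at 10.63 in the last.

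The fibroblast label was checked against 16 marker genes with 17 value profiles. Of these, 2 profiles, those of Fap and Lum, lay in the dimmest 25% of probe sets. Vim ranged from 13.56 to 14.08 and Col1a2 from 11.59 to 12.50 over the arrays. The mean log2 value over the list was 9.54 to 9.81 in ASYM cultures, 9.55 to 9.66 in SYM cultures and 9.23 and 9.25 in p53SYM cultures. In p53SYM cultures 7 profiles were lower than in SYM cultures, with Col3a1 at −2.68, Twist2 at −1.45, Col1a1 at −1.06 and Sparc at −0.97. The 3 higher profiles were those of Twist1 (0.50) and Fn1 (0.28) and 1 of the 2 profiles of Prrx1 (0.50). With 1 array left out the lower ones were 4 to 7 and the higher ones 0 to 2, and with arrays quantile-normalized again 5 were higher. Leaving out p53SYM replicate 1 ended the call of Col1a1 (adjusted p = 0.052, limma). Col3a1, Col1a1 and Sparc encode matrix proteins and Twist2 a transcription factor of mesenchymal cells. In ASYM against SYM cultures, 2 fibroblast profiles were higher (1 without SYM replicate 3) and 1 was lower, and in ASYM against p53SYM cultures 8 were higher and 0 lower. Of all probe sets, 10.9% were called higher and 11.0% lower in ASYM than in SYM cultures. In ASYM against p53SYM these shares were 15.6% and 15.5%, and in p53SYM against SYM 10.2% and 15.1%. The same shares apply to the counts of the other gene lists.

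Markers of other cell types were in part at the low end: 5 of 13 haematopoietic, 6 of 8 endothelial and 4 of 8 epithelial markers lay in the dimmest 25% of probe sets. Ptprc, Pecam1 and Epcam, which define haematopoietic, endothelial and epithelial cells, were among them and ranged from 3.37 to 3.75, from 3.83 to 4.20 and from 4.11 to 4.61. The mean log2 value over 13 haematopoietic markers was 4.46 to 4.64 on the ASYM and SYM arrays and 4.70 and 4.84 on the p53SYM arrays, with Flt3 as the brightest (mean 5.55). Over 8 endothelial markers it was 4.30 to 4.43 and then 4.52 and 4.59, with Kdr as the brightest (6.15), and over 8 epithelial markers 4.26 to 4.54 and then 4.55 and 4.66, with Cldn3 as the brightest (5.22). Among the haematopoietic markers, p53SYM exceeded SYM by 0.42 in Cd3e and by 0.33 in Csf1r. Among the endothelial markers p53SYM exceeded SYM by 0.44 in Kdr and by 0.49 in Vwf. ASYM minus p53SYM was −0.76 for Kdr (adjusted p = 0.00088, limma), a call that held without each of the arrays and was lost with the hybridization controls as a covariate (−0.61, adjusted p = 0.057, limma), and ASYM minus SYM was −0.32 (adjusted p = 0.038, limma), a call lost without SYM replicate 1 (0.087) or 3 (0.12) or any ASYM replicate (0.051 to 0.12). Of the epithelial markers 0 were called in any comparison. Without SYM replicate 3, 2 of the 8 epithelial markers were called higher in p53SYM than in SYM and 2 lower in ASYM than in p53SYM cultures, and with arrays centred again 2 were lower in ASYM than in p53SYM cultures. Of the calls in p53SYM against SYM cultures, several rested on single arrays: without p53SYM replicate 2 Cd3e (adjusted p = 0.13, limma) and Kdr (0.12) were not called, Kdr was not called without SYM replicate 2 (0.052), Csf1r was not called without SYM replicate 1 (0.1) or 2 (0.1), ASYM replicate 3 (0.053) or p53SYM replicate 1 (0.15) or 2 (0.13), and Vwf was not called without any 1 of the SYM or p53SYM arrays (0.073 to 0.26). These small differences have the same direction as the higher low end of the p53SYM arrays, whose part in them was not tested. Of Cd3e, Csf1r, Kdr and Vwf, only Vwf lay in the dimmest 25% of probe sets. Some smooth muscle markers differed far more: in ASYM against p53SYM cultures Cnn1 was higher by 3.70, Tagln by 3.01 and Acta2 by 0.86. In the same comparison Myh11 was lower (−0.35), and 6 of the 11 markers were not called, with a median difference of 0.22 over the list. Mcam was lower in p53SYM than in SYM cultures (−0.91), a call lost without p53SYM replicate 2. Of this list of 11, 4 were called higher and 1 lower in ASYM than in p53SYM, 4 lower and 0 higher in p53SYM than in SYM, and 1 higher and 0 lower in ASYM than in SYM cultures. The 1 lower in ASYM than in p53SYM was 0 without SYM replicate 2, ASYM replicate 1 or 2, or p53SYM replicate 2, after a further quantile normalization and with the covariate, the 4 lower in p53SYM than in SYM were 3 to 4 with 1 array left out, and the 1 higher in ASYM than in SYM was 2 without ASYM replicate 2.

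Among the 10 surface markers, 4 were called in ASYM against SYM cultures, Ly6a and Pdgfrb higher and Cd34 and Thy1 lower. Of all probe sets 21.9% were called in this comparison, 10.9% higher and 11.0% lower. In ASYM against p53SYM cultures 5 were called, Cd34, Cd44 and Pdgfra higher and Thy1 and Kit lower, where 31.1% of all probe sets were called, 15.6% higher and 15.5% lower. In p53SYM against SYM cultures 4 were called, Thy1 and Pdgfrb higher and Cd34 and Pdgfra lower, where 25.4% of all probe sets were called, 10.2% higher and 15.1% lower. With so many calls across the array, the number of markers called is not in itself a result about them. The median difference over the markers was 0.11, 0.19 and 0.18 in these comparisons, against −0.06, −0.06 and 0.04 over all probe sets. Arrays of the compared lines did not overlap for 7 markers in ASYM against SYM cultures, 8 in ASYM against p53SYM and 8 in p53SYM against SYM, and for 38.0%, 60.3% and 51.6% of all probe sets. The rank product test that the study used, at a pfp (percent false positives) under 0.05, called 2 markers in ASYM against SYM (Ly6a and Cd34), 1 in ASYM against p53SYM (Pdgfra) and 1 in p53SYM against SYM cultures (Cd34), with 3.65%, 2.03% and 2.29% of all probe sets. The comparisons share arrays, so their values stand side by side and are not independent. In whole cultures, fewer cells of a type and less RNA per cell cannot be told apart.

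**Figure D2:**
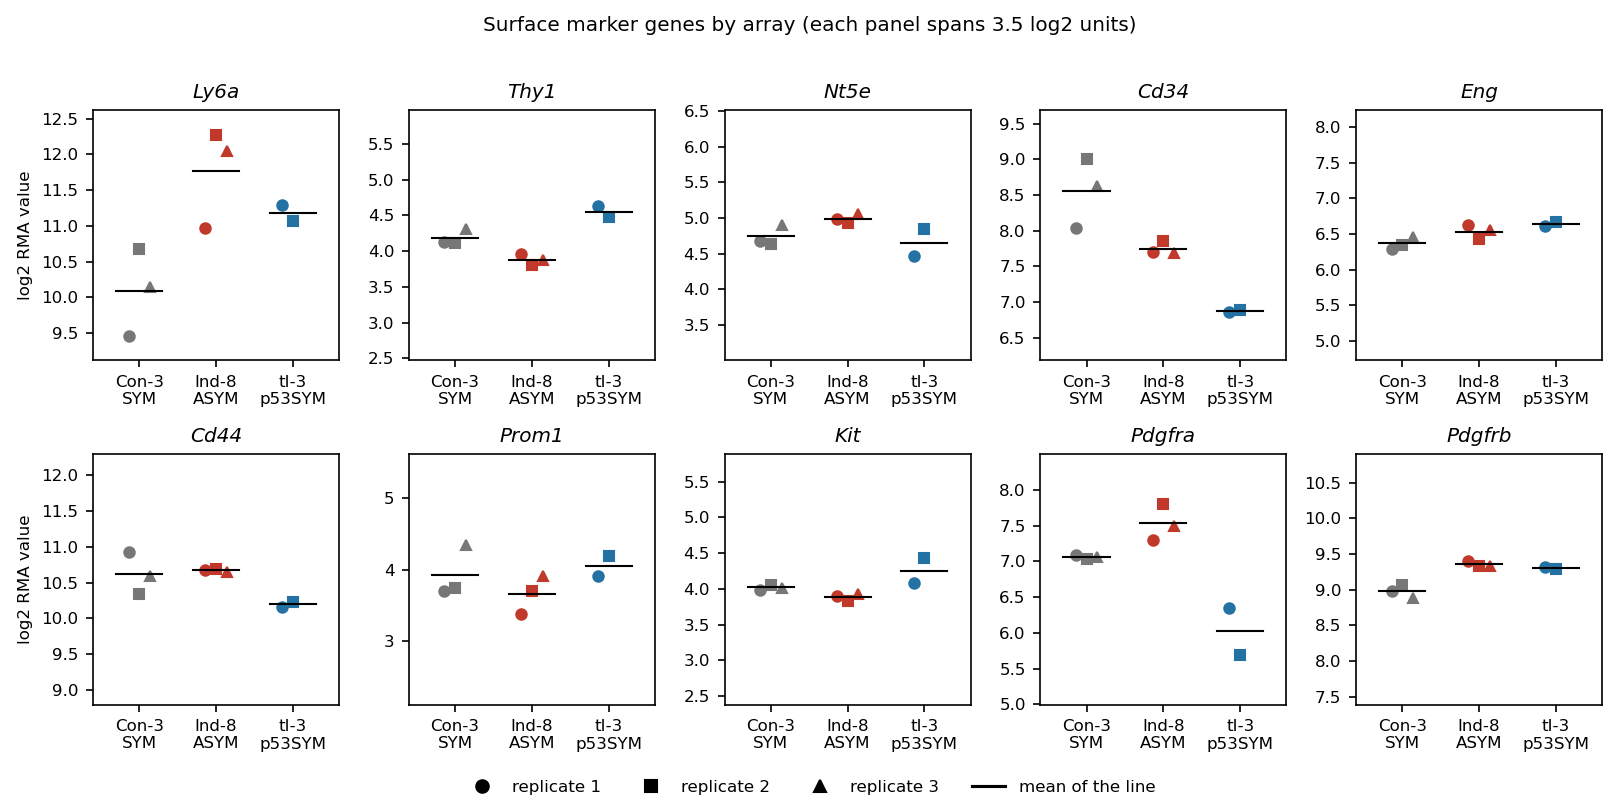
Log2 RMA values of the 10 surface marker genes on each of the 8 arrays, by line; symbols give the replicate, bars the mean of the line, and panels share the length of their axis. Ly6a is higher on the ASYM than on the SYM arrays, Cd34 falls into 3 separate ranges, and Pdgfra is lowest in p53SYM cultures.

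Ly6a, the marker by which mouse progenitors of several tissues are sorted, had the largest difference of the markers between ASYM and SYM cultures. Its log2 values were 10.97, 12.27 and 12.05 on the ASYM arrays, 9.46, 10.68 and 10.14 on the SYM arrays and 11.29 and 11.07 on the p53SYM arrays. Every ASYM and p53SYM array thus lay above every SYM array, while ASYM replicate 1 lay below both p53SYM arrays. The ASYM mean exceeded the SYM mean by 1.67 (standard error 0.34, adjusted p = 0.0066, limma), or 3.18-fold. This call held in the 17 other settings tried, with differences from 1.35 to 2.07. Between p53SYM and SYM cultures the difference was 1.09, with a 95% interval from 0.23 to 1.94 (adjusted p = 0.063, limma). It was called without SYM replicate 2 (1.38, adjusted p = 0.031, limma) or without ASYM replicate 1 (adjusted p = 0.021, limma), and also with the replicate number as a block. ASYM and p53SYM cultures did not differ beyond the spread of the replicates, at 0.58 with a 95% interval from −0.27 to 1.44. Without ASYM replicate 1 the difference was 0.98 (adjusted p = 0.049, limma), and without ASYM replicate 2 it was 0.33 and not called.

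Ly6a belongs to a family of small proteins with a three-finger fold, of which 18 of 23 listed genes were found, in 19 value profiles. Ly6c1, Ly6c2, Ly6g, Ly6g5b and Cd59b were not analysed here. In ASYM against SYM cultures 5 profiles were higher and 0 lower, those of Ly6a, Ly6e, Lynx1 and a pair for Cd59a. Ly6e, another GPI-anchored antigen, was at 10.09, 10.36 and 10.22 on the ASYM arrays, 7.92, 8.02 and 8.22 on the SYM arrays and 7.88 and 7.78 on the p53SYM arrays. It was thus high on the ASYM arrays, by 2.17 over SYM (adjusted p = 1.3e-06, limma) and by 2.39 over p53SYM cultures (adjusted p = 2.7e-06, limma), while p53SYM minus SYM, at −0.22, was not called (adjusted p = 0.2, limma). Cd59a, an inhibitor of the complement membrane attack complex, followed the order of Ly6a: its brighter profile was higher by 1.61 in ASYM and by 0.73 in p53SYM than in SYM cultures, and by 0.88 in ASYM than in p53SYM cultures. Lynx1, which binds nicotinic acetylcholine receptors, was higher in ASYM cultures by 0.84 over SYM and by 1.08 over p53SYM. In ASYM against p53SYM cultures 4 profiles of the family were higher and 3 lower (3 to 5 and 1 to 4 with 1 array left out), and in p53SYM against SYM cultures 3 were higher (2 to 4) and 0 lower.

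Thy1 and Nt5e, the other GPI-anchored markers, were low in every line. Thy1 was at 3.96, 3.81 and 3.88 on the ASYM arrays, 4.13, 4.12 and 4.31 on the SYM arrays and 4.63 and 4.48 on the p53SYM arrays, so that the lines did not overlap. Its ASYM mean lay below the p53SYM mean, at a log2 difference of −0.67 (standard error 0.11, adjusted p = 0.0016, limma), and below the SYM mean, at −0.30 (adjusted p = 0.045, limma), and p53SYM exceeded SYM by 0.37 (adjusted p = 0.028, limma). The mean of Thy1 over all arrays lies in the dim range described above, though the p53SYM arrays and SYM replicate 3 lay above 4.30. Its line means run in the order of the low end of the arrays by line. With the hybridization controls as a covariate the differences were −0.55 (adjusted p = 0.081, limma), −0.24 (adjusted p = 0.2, limma) and 0.31 (adjusted p = 0.11, limma), none of them called. The difference from SYM in ASYM cultures also lost its call without any 1 of the 8 arrays, at adjusted p-values from 0.052 to 0.15 (limma). That of p53SYM against SYM lost it without SYM replicate 1 (adjusted p = 0.07, limma), SYM replicate 2 (0.089), p53SYM replicate 1 (0.16) or p53SYM replicate 2 (0.057). Nt5e, which converts extracellular AMP to adenosine, ranged from 4.46 to 5.05 over the 8 arrays and was not called in any comparison. Its differences were 0.25 for ASYM minus SYM (95% interval −0.01 to 0.51), 0.33 for ASYM minus p53SYM (0.04 to 0.62) and −0.09 for p53SYM minus SYM (−0.38 to 0.20). ASYM minus p53SYM was 0.52 without p53SYM replicate 2 and 0.14 without p53SYM replicate 1, and was called after a further quantile normalization (0.51, adjusted p = 0.0096, limma). With the hybridization controls as a covariate it was 0.64 and not called (adjusted p = 0.056, limma), while ASYM minus SYM was called at 0.40 (adjusted p = 0.049, limma).

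Of 17 listed genes of extracellular ATP and adenosine, Nt5e among them, 16 were found, in 17 profiles. In p53SYM against SYM cultures 2 profiles were higher and 4 lower, with 11 not called, and without SYM replicate 3 the higher ones were 4. Both higher profiles were those of Enpp2 (autotaxin, which makes lysophosphatidic acid), at 2.41 and 2.28. The lower ones were those of Enpp1 (−1.28) and Enpp3 (−1.13), which hydrolyse extracellular nucleotides, of Ada (−1.06), which deaminates adenosine, and of Slc29a1 (−0.58), a nucleoside transporter. In ASYM against SYM cultures 3 were higher and 1 lower, with Enpp2 at 1.54 and 1.31 in its 2 profiles, and in ASYM against p53SYM cultures 5 were higher and 2 lower (1 to 4 lower with 1 array left out). The profile of Enpp2 at 1.31 was not called without SYM replicate 1 (adjusted p = 0.051, limma) or with the hybridization controls as a covariate (1.32, adjusted p = 0.063, limma). Without ASYM replicate 2 it was 0.85. Entpd1 and Adora2b lay in the dimmest 25% and were not called, with ranges from 3.55 to 4.20 and from 3.77 to 3.97.

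Cd34, which marks haematopoietic progenitors, endothelium and some fibroblasts, separated the lines in the order SYM, ASYM, p53SYM. Its log2 values were 7.70, 7.85 and 7.69 for the ASYM cultures, 8.04, 9.00 and 8.63 for the SYM cultures and 6.87 and 6.89 for the p53SYM cultures. No array of a line overlapped with another line, and the SYM arrays spread most. Between p53SYM and SYM cultures the difference was −1.68 (standard error 0.22, adjusted p = 0.00047, limma), 3.20-fold, and it was called in the 17 other settings, from −1.94 to −1.45. ASYM minus SYM was −0.81 (standard error 0.19, adjusted p = 0.013, limma), a call that held without each of the arrays and was lost with the hybridization controls as a covariate (−0.73, adjusted p = 0.077, limma). ASYM exceeded p53SYM by 0.87 (standard error 0.22, adjusted p = 0.014, limma). With a lone p53SYM array this was not called, either when replicate 1 was left out (adjusted p = 0.064, limma) or when replicate 2 was (0.08), nor was it with the covariate (1.03, adjusted p = 0.12, limma).

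Prom1, which marks neural, epithelial and haematopoietic progenitors, had a mean in the dim range, with arrays from 3.38 to 4.35. Its 95% intervals included 0 in each comparison. The differences were −0.27 for ASYM minus SYM (−0.68 to 0.14), −0.39 for ASYM minus p53SYM (−0.85 to 0.07) and 0.12 for p53SYM minus SYM (−0.34 to 0.58). With the replicate number as a block, ASYM minus p53SYM was −0.55 and was called. Of the related genes Prom2, Podxl and Podxl2, Prom2 was lower in ASYM than in p53SYM cultures (−0.51, adjusted p = 0.0044, limma), though not with the hybridization controls as a covariate (−0.37, adjusted p = 0.17, limma), and Podxl2 lower in ASYM than in SYM cultures (−0.37, adjusted p = 0.033, limma). The call of Podxl2 was lost without SYM replicate 1 (adjusted p = 0.092, limma), SYM replicate 3 (0.1) or any ASYM replicate (0.055 to 0.096). It was also lost with the covariate (−0.30, adjusted p = 0.17, limma) and after a further quantile normalization (adjusted p = 0.057, limma). Over the 5 genes of the prominin and Cd34 families, 0 were higher and 2 lower in ASYM than in SYM, 1 higher and 1 lower in ASYM than in p53SYM, and 0 higher and 1 lower in p53SYM than in SYM cultures.

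Cd34 and Pdgfra were the markers with the largest called differences of the p53SYM line, and their promoters are shown with that of Cdkn1a, the p53 target read above. The windows come from RefSeq on GRCm38.p6 and run from 250 bases before to 50 after an annotated start. They were matched by symbol for 7 of the 10 markers, in 9 windows, and the 250 bases before the start are printed 5′ to 3′ in lower case, with any half-site of the p53 consensus in capitals. The Cd34 stretch is chr1:194938571-194938820, plus strand, the Pdgfra stretch chr5:75152001-75152250, plus strand, and the Cdkn1a stretch, from the first of its 2 windows, chr17:29090729-29090978, plus strand. In RefSeq the Pdgfra gene starts at 75151322, so the printed Pdgfra stretch lies inside the gene, before a later start.
Cd34 promoter: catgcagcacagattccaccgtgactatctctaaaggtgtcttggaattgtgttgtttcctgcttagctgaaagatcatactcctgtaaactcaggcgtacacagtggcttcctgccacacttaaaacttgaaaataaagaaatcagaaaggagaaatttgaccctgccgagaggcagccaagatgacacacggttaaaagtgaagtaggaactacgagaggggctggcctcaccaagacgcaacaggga
Pdgfra promoter: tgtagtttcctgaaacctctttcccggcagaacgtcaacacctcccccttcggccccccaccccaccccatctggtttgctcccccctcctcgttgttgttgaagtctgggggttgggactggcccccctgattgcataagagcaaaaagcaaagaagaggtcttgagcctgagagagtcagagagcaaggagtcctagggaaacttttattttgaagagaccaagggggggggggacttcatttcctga
Cdkn1a promoter: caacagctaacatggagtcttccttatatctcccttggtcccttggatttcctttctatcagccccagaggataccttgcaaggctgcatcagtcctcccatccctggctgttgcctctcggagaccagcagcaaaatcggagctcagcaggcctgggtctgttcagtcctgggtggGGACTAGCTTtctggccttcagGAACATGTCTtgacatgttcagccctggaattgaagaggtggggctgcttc
The half-site of the p53 consensus, 10 letters long and its own reverse complement, was found in 0 of the 9 marker windows and in 8.36% of all 32851 windows. The printed Cdkn1a stretch holds 2 half-sites, starting at −73 and −51 from the start, and 0.0731% of all windows hold such a pair at most 13 bases apart. On both strands, TATAAA was in 0 of the 9 marker windows (13.6% of all windows), CCAAT in 1 (37.4%) and GGGCGG in 5 (35.7%), and the CArG box, named here without its letters, in 0 (1.63%). Of the windows with GGGCGG, those of Kit overlap (starts 75574737 and 75574741), so that 1 site is counted in both. The Cd34 and Pdgfra windows held none of these motifs. Their share of G and C was 50.0% and 51.0%, near the median of 52.7% over all windows, with 7 and 5 CpG dinucleotides. Such a match describes letters in a window and no binding was measured here.

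Eng was not called in any comparison. Its values ranged from 6.42 to 6.62 on the ASYM arrays, from 6.30 to 6.46 on the SYM arrays and from 6.62 to 6.67 on the p53SYM arrays. The p53SYM arrays thus lay above the SYM arrays. By limma, ASYM minus SYM was 0.16 (95% interval −0.04 to 0.36), ASYM minus p53SYM −0.11 (−0.33 to 0.12) and p53SYM minus SYM 0.27 (0.04 to 0.49, adjusted p = 0.078, limma). The last was called when the arrays were quantile-normalized again (0.32, adjusted p = 0.034, limma).

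Some ligands and partners of endoglin passed the test where Eng did not. Of 18 listed genes in 19 profiles, 3 were lower in p53SYM than in SYM cultures, and these were the TGF-β ligands: Tgfb1 at −1.15 (adjusted p = 0.0014, limma), Tgfb3 at −1.04 (adjusted p = 0.0014, limma) and Tgfb2 at −0.98 (adjusted p = 0.0031, limma). On the other side p53SYM exceeded SYM in 5 profiles, among them Id2, an inhibitor of basic helix-loop-helix factors, by 0.92, but in 1 without SYM replicate 3. Id2 itself was not called without SYM replicate 2 (adjusted p = 0.071, limma), SYM replicate 3 (0.06), p53SYM replicate 1 (0.15) or p53SYM replicate 2 (0.052). The same 3 ligands were higher in ASYM than in p53SYM cultures, by 0.92, 1.30 and 1.06, although Tgfb1 was not called there without p53SYM replicate 2 (adjusted p = 0.055, limma). With the hybridization controls as a covariate Tgfb1 (0.57, adjusted p = 0.23, limma) and Tgfb2 (1.12, adjusted p = 0.056, limma) were not called, and 1 profile of the list was higher in ASYM than in p53SYM cultures. Their ASYM minus SYM differences of −0.24, 0.25 and 0.08 were not called. In ASYM against p53SYM cultures 5 profiles were higher and 0 lower (3 to 5 and 0 to 2 with 1 array left out), and in ASYM against SYM cultures 4 were higher (3 to 6 with 1 array left out) and 0 lower. The type II receptor Tgfbr2, in 2 profiles, and the endothelial type I receptor Acvrl1 were not called in any comparison.

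Cd44, the main receptor of hyaluronan, was at 10.68, 10.70 and 10.65 on the ASYM arrays, 10.93, 10.34 and 10.59 on the SYM arrays and 10.16 and 10.23 on the p53SYM arrays. The p53SYM arrays were the lowest, and the ASYM arrays fell within the range of the SYM arrays. ASYM exceeded p53SYM by 0.48 (standard error 0.15, adjusted p = 0.033, limma), whereas p53SYM minus SYM was −0.42 (95% interval −0.75 to −0.10, adjusted p = 0.06, limma) and ASYM minus SYM 0.06 (−0.24 to 0.35). The call against p53SYM was lost without ASYM replicate 1 (adjusted p = 0.072, limma), 2 (0.077) or 3 (0.057), and without p53SYM replicate 1 (0.13) or 2 (0.12). Without SYM replicate 2, p53SYM minus SYM was called at −0.57 (adjusted p = 0.016, limma), whereas without SYM replicate 1 it was −0.27 and not called. After a further quantile normalization ASYM minus p53SYM was not called.

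A few of the genes around Cd44 differed more than Cd44 did. Has2, the main hyaluronan synthase of mesenchymal cells, was at 9.23, 8.38 and 8.29 on the ASYM arrays, 9.16, 7.85 and 8.32 on the SYM arrays, and averaged 6.02 over the p53SYM arrays. It was lower on both p53SYM arrays than on any other, by −2.42 on the log2 scale against SYM (adjusted p = 0.00084, limma), and ASYM exceeded p53SYM by 2.61 (adjusted p = 0.00066, limma). Ezr, which ties Cd44 to actin, was higher than in SYM cultures by 1.51 in ASYM and by 1.55 in p53SYM cultures. Spp1 (osteopontin, a ligand of Cd44) was higher than in SYM cultures by 1.04 in ASYM and by 1.39 in p53SYM cultures. The former was not called with the hybridization controls as a covariate (0.88, adjusted p = 0.056, limma). Rdx, a relative of Ezr with 2 profiles, was lower in ASYM than in SYM cultures in 1 of them (−0.69), a call lost without SYM replicate 1 (adjusted p = 0.061, limma). Of 14 profiles in this list, 2 were higher and 2 lower in ASYM than in SYM, 1 higher and 2 lower in ASYM than in p53SYM, and 3 higher and 1 lower in p53SYM than in SYM cultures. The lower ones were 1 to 2 in each comparison with ASYM when 1 array was left out. Against p53SYM they were 4 after a further quantile normalization and 0 with the hybridization controls as a covariate, and in each comparison of the lines 10 to 11 of the 14 profiles were not called by limma.

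Pdgfra, the receptor tyrosine kinase of fibroblasts and mesenchymal progenitors, was the marker with the largest difference between ASYM and p53SYM cultures. Its log2 values were 7.30, 7.81 and 7.50 on the ASYM arrays, 7.09, 7.04 and 7.06 on the SYM arrays and 6.36 and 5.69 on the p53SYM arrays. The lines did not overlap, and the p53SYM arrays differed most from each other. ASYM exceeded p53SYM by 1.51 (standard error 0.19, adjusted p = 0.00046, limma), 2.86-fold, a call made in the 17 other settings, at 1.18 to 1.85. p53SYM minus SYM was −1.04 (standard error 0.19, adjusted p = 0.003, limma), from −1.37 to −0.71 over the other settings, and the rank product test did not call it (pfp 0.063). ASYM minus SYM was 0.47 (95% interval 0.10 to 0.85, adjusted p = 0.074, limma) and was called without either p53SYM array (adjusted p = 0.028, limma).

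Pdgfrb, the receptor of fibroblasts and pericytes, showed another order. It was at 9.41, 9.33 and 9.34 on the ASYM arrays, 8.98, 9.07 and 8.88 on the SYM arrays and 9.32 and 9.29 on the p53SYM arrays. The SYM arrays were thus the lowest and the lines with induced p53 lay close together. ASYM exceeded SYM by 0.38 (standard error 0.086, adjusted p = 0.0099, limma), which was not called with the hybridization controls as a covariate (0.33, adjusted p = 0.061, limma). p53SYM exceeded SYM by 0.33 (standard error 0.096, adjusted p = 0.03, limma), a call lost without SYM replicate 1 (adjusted p = 0.058, limma) or 3 (0.073) and without p53SYM replicate 1 (0.12) or 2 (0.11). That call was also lost with the replicate number as a block (adjusted p = 0.057, limma). ASYM minus p53SYM was 0.05, with a 95% interval from −0.16 to 0.27.

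The mean of Kit, the receptor of stem cell factor, over all arrays lay in the dim range. Its values were 3.89, 3.83 and 3.93 on the ASYM arrays, 3.99, 4.06 and 4.01 on the SYM arrays and 4.08 and 4.43 on the p53SYM arrays. The order of the lines was that of the low end of the arrays, as for Thy1. ASYM minus p53SYM was −0.37 (standard error 0.11, adjusted p = 0.033, limma), a difference not called after a further quantile normalization (adjusted p = 0.21, limma) or in the compared lines alone (0.055). Without p53SYM replicate 2 this was −0.19 (adjusted p = 0.3, limma), and without ASYM replicate 1, 2 or 3 it was not called either (adjusted p = 0.068, 0.086 and 0.052, limma). ASYM minus SYM was −0.14 (95% interval −0.36 to 0.09) and p53SYM minus SYM 0.23 (−0.02 to 0.49). The latter was 0.41 without p53SYM replicate 1 and 0.06 without p53SYM replicate 2.

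**Figure D3:**
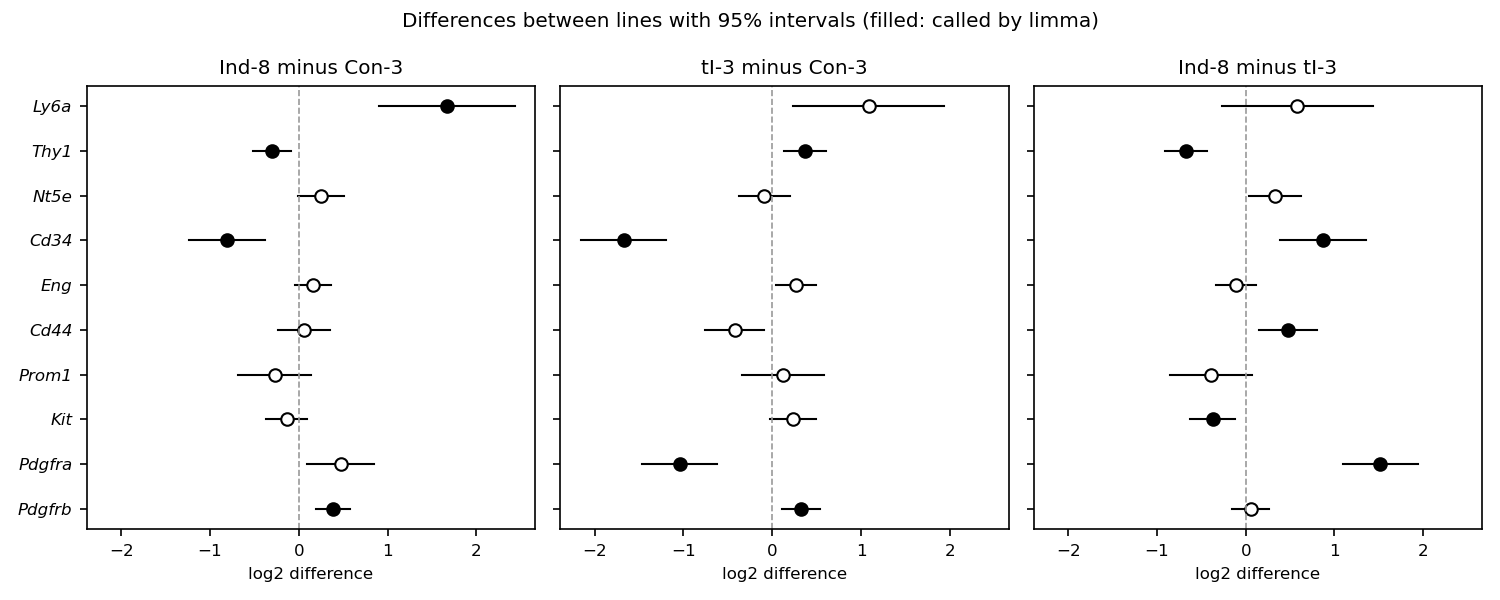
Log2 differences of the 10 surface marker genes between lines, with 95% intervals from limma; filled points were called at an adjusted p under 0.05. Intervals of Ly6a are the widest, Cd34 and Pdgfra lie below 0 in p53SYM against SYM cultures, and Pdgfra lies at 1.51 in ASYM against p53SYM cultures.

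Some ligands of these receptors were called, in different directions. PDGF-A and PDGF-C act through the alpha receptor, PDGF-D through the beta receptor and PDGF-B through both. Pdgfd was at 6.99, 7.74 and 7.39 on the ASYM arrays, 8.05, 7.93 and 8.13 on the SYM arrays and 6.33 and 6.05 on the p53SYM arrays, the same order of lines as for Cd34. It was lower than in SYM cultures by −1.85 on the log2 scale in p53SYM (adjusted p = 0.00012, limma) and by −0.67 in ASYM cultures (adjusted p = 0.016, limma), the latter not called without SYM replicate 3 (adjusted p = 0.059, limma). Pdgfc was highest in ASYM cultures, by 0.86 over SYM (adjusted p = 0.00038, limma) and by 1.23 over p53SYM (adjusted p = 9e-05, limma). Pdgfb was lower than in SYM cultures by −1.12 in ASYM (adjusted p = 4.3e-05, limma) and by −1.11 in p53SYM cultures (adjusted p = 6.8e-05, limma). Pdgfa was not called, at 0.51 for ASYM minus SYM (adjusted p = 0.12, limma), nor was Kitl, the gene of stem cell factor, at 0.11 (adjusted p = 0.67, limma). Of the 15 profiles of ligands and class III receptors, 6 were higher and 2 lower in ASYM than in SYM, 3 higher and 2 lower in ASYM than in p53SYM, and 5 higher and 4 lower in p53SYM than in SYM cultures. With 1 array left out, those higher in p53SYM than in SYM were 0 to 5, and those lower in ASYM were 1 to 2 against SYM and 0 to 2 against p53SYM.

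**Figure D4:**
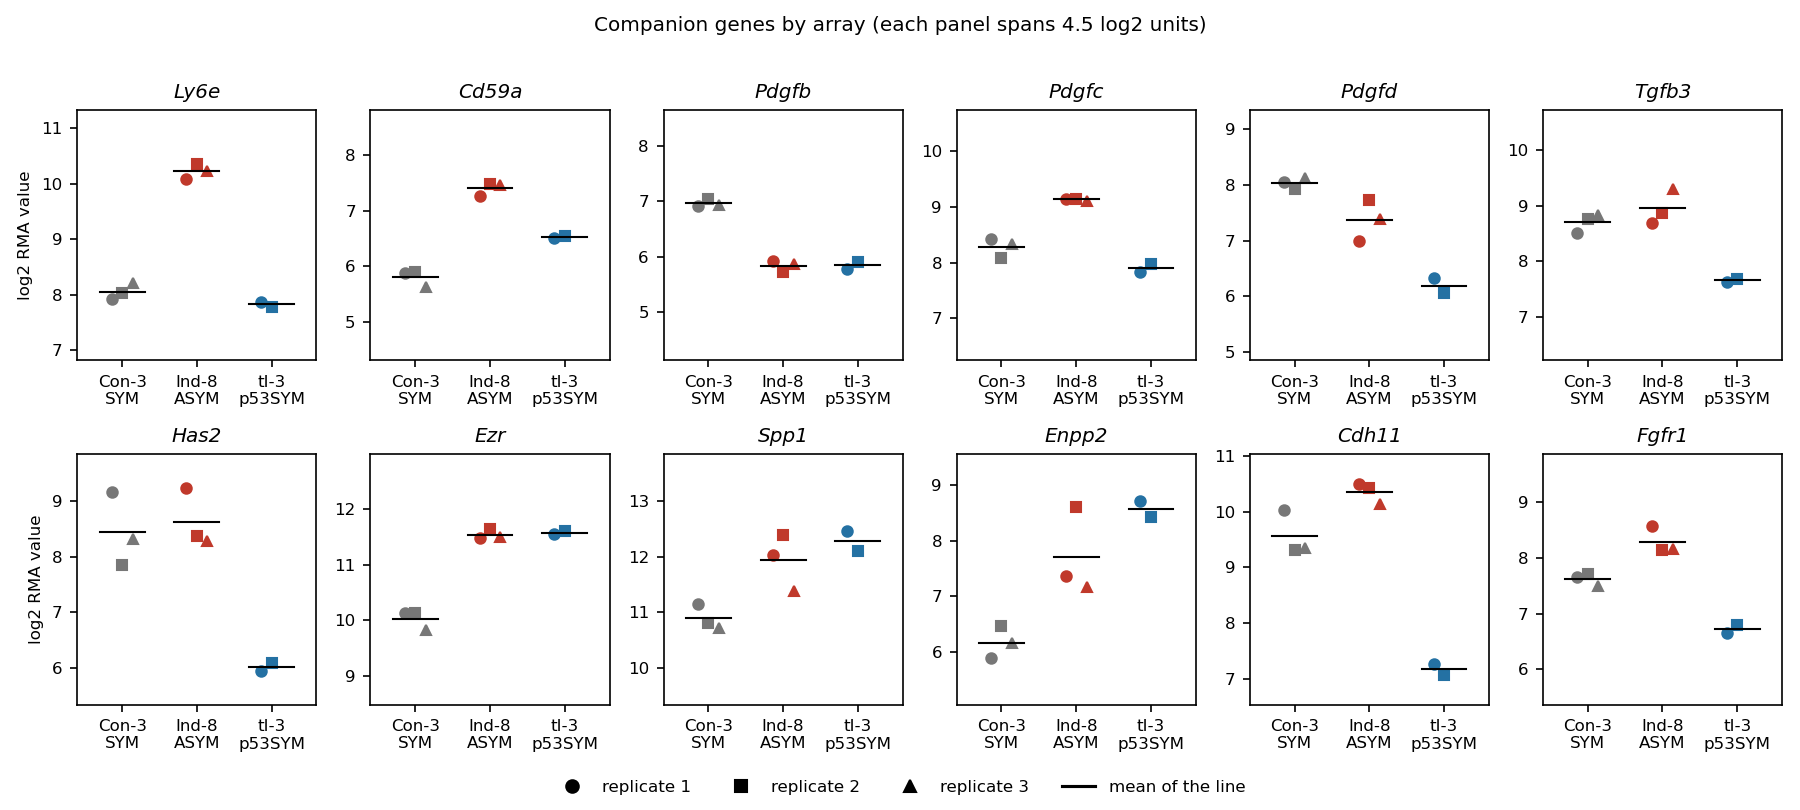
Log2 RMA values of 12 companion genes (family members, ligands, enzymes and other markers) on each of the 8 arrays, by line; symbols give the replicate, bars the mean of the line, and panels share the length of their axis. Ly6e and Pdgfc are highest in ASYM cultures, Pdgfb is highest in SYM cultures, and Has2 and Cdh11 are lowest in p53SYM cultures.

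Other surface markers in common use were read from a pair of lists. Of the mesenchymal list, 19 of 21 genes were found, in 21 profiles, of which 4 were higher and 0 lower in ASYM than in SYM cultures, 5 higher and 3 lower in ASYM than in p53SYM, and 0 higher and 4 lower in p53SYM than in SYM. In the last of these, 2 were higher and 5 lower without SYM replicate 3, and 2 higher and 4 lower with arrays quantile-normalized again, and 2 were lower without p53SYM replicate 1 or without p53SYM replicate 2, while the 3 lower in ASYM than in p53SYM were 0 to 3 with 1 array left out. Cdh11, the cadherin of mesenchymal cells, was at 10.50, 10.43 and 10.14 on the ASYM arrays, 10.03, 9.31 and 9.35 on the SYM arrays and 7.26 and 7.07 on the p53SYM arrays. It was lowest in p53SYM cultures, by −2.40 on the log2 scale against SYM (adjusted p = 4.4e-05, limma), and ASYM exceeded p53SYM by 3.19 (adjusted p = 1.2e-05, limma). Alcam (CD166, an adhesion molecule) was higher in ASYM cultures by 1.32 over SYM and by 0.87 over p53SYM. Pdpn, a sialoglycoprotein of stromal cells, was higher in ASYM than in p53SYM cultures by 0.92. With the hybridization controls as a covariate ASYM minus p53SYM was 0.72 for Alcam and 0.83 for Pdpn, and neither was called (adjusted p = 0.14 for each, limma). Of the stem cell list all 19 genes were found, in 20 profiles, of which 6 were higher and 1 lower in ASYM than in SYM, 3 higher and 2 lower in ASYM than in p53SYM, and 3 higher and 2 lower in p53SYM than in SYM cultures. Cxcr6, a chemokine receptor, was higher in ASYM cultures by 1.53 over SYM and by 1.95 over p53SYM. Fgfr1 was higher in ASYM than in SYM cultures (0.67) and lower in p53SYM than in SYM cultures (−0.89), as was the sign for Pdgfra. Fgfr2 was higher than in SYM cultures in p53SYM (1.26) and in ASYM cultures (0.51), and Lgr6, a receptor of R-spondins, likewise by 1.05 and 0.94.

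For the 4 markers with the widest range of group means, the genes most like them over the 8 arrays were found by Pearson's r among 12260 profiles, as a description that rests on the same 3 lines. Those of Ly6a were Rassf2 (r = 0.995), Itih2 (0.980) and Pik3ip1 (0.972), whose means were highest in ASYM and lowest in SYM cultures. For Pdgfra they were Tmem45a (0.994), Rbl2 (0.992) and Bace1 (0.991), for Cd34 Fbxo2 (0.989), Cdk11b (0.989) and Cryl1 (0.987), and for Thy1 Lmx1b (0.990), Dhh (0.987) and Lyl1 (0.986). Tmem45a followed Pdgfra with a larger span, at a mean of 8.46 for ASYM, 7.67 for SYM and 6.21 for p53SYM arrays.

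With 3 cultures of a line, and 2 of p53SYM, the p-values measure the spread between cultures of 1 clone per state. No protein at the cell surface was measured here.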

How the data were processed

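RNA of 8 cultures was hybridized to 1 Affymetrix Mouse array each. According to the submitters' processing notes, the authors used RMA and a custom CDF (version 12) that groups probes by RefSeq transcript, which gave the log2 values used here. Of 22587 probe sets, 64 are Affymetrix controls and were not tested. No further normalization was applied. Through a table of RefSeq genes (GRCm38.p6), used for names, 18294 of 22523 probe sets (81.2%) were named. A gene with several value profiles is given with their number. Groups and replicate numbers came from the sample labels, and 0 columns of the table belonged to no sample.

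Lines were compared with limma 3.58.1 in R 4.3.3, fitted to the means of the 3 lines, with p adjusted by Benjamini-Hochberg over 22523 probe sets and a call at an adjusted p under 0.05, two-sided. The study's rank product test was re-implemented (100 permutations, pfp under 0.05) and used as an alternative. Other alternatives were the compared lines alone, the replicate number as a block, the hybridization controls as a covariate, an intensity trend, probe sets above the 25th percentile, distinct profiles once, arrays centred or quantile-normalized again, a log2 difference of at least 1, and each array left out. Python 3.11.15 with numpy 2.4.6, pandas 2.3.3 and matplotlib 3.10.9 was used for tables and figures, and both tests were tested on simulated data.

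Named genes are the 10 markers, Trp53, Impdh2 and Cdkn1a, up to 4 genes per list with the largest called difference, preset ligands and partners, markers that define a cell type, and the 3 genes most like each of 4 markers (profiles with a mean above the 25th percentile). The promoter motifs were chosen after the values were seen. Members and lists were chosen with earlier results of these data known.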

Additional observations from a re-analysis of the deposited data

Results flagged for a closer look

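For 4 markers the ASYM and p53SYM means lay on opposite sides of the SYM mean, and limma called the difference between these lines. Of their differences from SYM, both were called for Thy1 and that of p53SYM for Pdgfra, while those of Cd44 and Kit were not called. ASYM minus p53SYM was 1.51 for Pdgfra, 0.48 for Cd44, −0.67 for Thy1 and −0.37 for Kit on the log2 scale. For Thy1 and Kit, whose means over all arrays lie below 4.30, the hybridization controls and the low end of the arrays run in the same order of lines. The part of both in the result was not tested beyond the fit with these controls as a covariate. That fit gave −0.55 (adjusted p = 0.081, limma) for Thy1 and −0.27 (adjusted p = 0.42, limma) for Kit. With that covariate the difference of Pdgfra was 1.28 (adjusted p = 0.039, limma) and that of Cd44 0.42 (adjusted p = 0.34, limma).

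Outside the tested probe sets, the 3 controls of 18S ribosomal RNA averaged 10.63 on SYM replicate 3, above the 5.58 to 6.46 of the other arrays. Without this array ASYM minus SYM was 1.69 for Ly6a (adjusted p = 0.023, limma), Cd34 was lower in p53SYM than in SYM cultures (−1.64, adjusted p = 0.0022, limma) and ASYM minus p53SYM was 1.51 for Pdgfra (adjusted p = 0.0011, limma). Thy1 lost its call in ASYM against SYM cultures (adjusted p = 0.15, limma) and Pdgfrb in p53SYM against SYM cultures (adjusted p = 0.073, limma).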

How the results depend on the processing

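Over the other settings, 501 differences of single markers were computed, of which 425 had the same direction and the same side of the threshold, 52 lost a call, 16 gained one and 8 changed sign. The sign changed for Cd44 in ASYM minus SYM without SYM replicate 2 (−0.09, against 0.21 without SYM replicate 1), for Nt5e in p53SYM minus SYM without p53SYM replicate 1 (0.10, against −0.28 without p53SYM replicate 2), for Prom1 in p53SYM minus SYM without p53SYM replicate 2 (−0.01, against 0.33 without SYM replicate 3) and with the hybridization controls as a covariate (−0.15), and in ASYM minus p53SYM for Prom1 (0.15) and Eng (0.04) with this covariate and for Pdgfrb with it (−0.06) or with arrays quantile-normalized again (−0.07). None of these 8 was called.

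The number of markers called in ASYM against SYM, 4 in the report, was 2 with the covariate, 2 by the rank product test and 1 with a log2 difference of at least 1, and 3 to 4 with 1 array left out. In ASYM against p53SYM, 5 in the report, it was 1 in each of these settings, 3 with probe sets above the 25th percentile, where Thy1, Prom1 and Kit were not tested, and 3 to 5 with 1 array left out. In p53SYM against SYM, 4 in the report, it was 1 by the rank product test, 2 with the minimum difference and 2 to 5 with 1 array left out. The share of all probe sets called was 13.2% and 5.47% with the covariate in ASYM against SYM and against p53SYM, and 3.65%, 2.03% and 2.29% in the 3 comparisons by the rank product test, 2.06%, 3.02% and 3.26% with the minimum difference. With 1 array left out it was 15.5% to 20.6%, 12.3% to 32.2% and 13.7% to 25%, lowest in the last pair without p53SYM replicate 2. With the covariate, 66.5% of the calls in ASYM against p53SYM were higher, against 50.1% in the report. Why these counts and shares changed between settings was not tested.

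Whether the replicate numbers pair the arrays is unresolved: correlations of the deviations of same-numbered arrays were 0.256, 0.024 and 0.367 for ASYM and SYM, 0.02 and −0.232 for ASYM and p53SYM, and 0.215 and 0.019 for SYM and p53SYM, with −0.401 to 0.256 for other numbers. With a replicate block, 4 markers were called in ASYM against SYM cultures, with 23.9% of all probe sets called. As in the main fit, the number of markers called is not in itself a result about them. Prom1 gained a call in ASYM against p53SYM (−0.55, adjusted p = 0.0076, limma) and Ly6a in p53SYM against SYM (1.17, adjusted p = 0.021, limma), Pdgfrb lost its call there (0.30, adjusted p = 0.057, limma), and no other marker changed sides.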
